A study of Arabidopsis thaliana with 12 samples.

Results

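The genes described here encode enzymes of the glyoxylate cycle and of the entry to gluconeogenesis in Arabidopsis thaliana. They were chosen by gene identifier and number 7 of the 33602 genes in the deposited count table. They are ICL (isocitrate lyase, AT3G21720), MLS (malate synthase, AT5G03860), the peroxisomal citrate synthase genes CSY2 (AT3G58750) and CSY3 (AT2G42790), the peroxisomal malate dehydrogenase genes PMDH1 (AT2G22780) and PMDH2 (AT5G09660), and PCK1 (phosphoenolpyruvate carboxykinase, AT4G37870). All 7 passed the filter on low counts, which kept 18515 genes. With NaCl, transcripts of ICL, PCK1, both PMDH genes and CSY2 fell in wild-type libraries while those of MLS rose, and the responses of ICL, PMDH1 and PMDH2 differed in libraries labelled camta6-5. The response of PCK1 also passed the test of that difference, but lost its call in 10 of the 12 fits that left out 1 library, and PCK1 and PMDH1 both lost it without the 5 libraries richest in 18S ribosomal RNA.

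The study asked how a mutant of CAMTA6, a calmodulin-binding transcription activator, germinates in salt, and sequenced RNA from material that the labels call pre-germinated seedlings. The 12 libraries form 4 groups of 3. They are camta6-5 with 200 mM NaCl, camta6-5 with 0 mM NaCl (control), wild-type Col-0 with 200 mM NaCl, and wild-type Col-0 with 0 mM NaCl (control). All came from cold-stratified seeds on 0.25 X MS agar, where the medium held the stated NaCl for 16 hours. The labels do not give the type of the camta6-5 mutation, how many seedlings were pooled, or whether the libraries of a group came from separate cultures, so p-values measure only the spread between these samples, which may be technical.

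Arabidopsis seeds store oil, and during germination its fatty acids are broken down to acetyl-CoA by beta-oxidation in peroxisomes. The glyoxylate cycle bypasses the steps of the citric acid cycle that release carbon dioxide, so that acetyl-CoA carbon ends up in organic acids. Phosphoenolpyruvate carboxykinase then turns oxaloacetate into phosphoenolpyruvate, from which the seedling makes sugar. Isocitrate lyase and malate synthase are the enzymes found only in this cycle, and their transcripts are textbook markers of oil use in germinating seeds.

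Promoters are shown for genes that differed in how they behaved with NaCl, so that their letters can be read beside the values. ICL and PCK1 fell in wild type, MLS rose, and CSY3 passed no test. Each stretch is the 250 bases before the start of the gene in the RefSeq annotation of TAIR10.1, 5′ to 3′ on the gene's strand, which is the minus strand for all of them. They are chr3:7656054-7656303 for ICL, chr5:1034974-1035223 for MLS, chr4:17806706-17806955 for PCK1 and chr2:17806074-17806323 for CSY3. Capitals mark matches, on either strand, to ACGTG, the core of the abscisic acid response element, or to CACGTG, the G-box that contains it.
ICL: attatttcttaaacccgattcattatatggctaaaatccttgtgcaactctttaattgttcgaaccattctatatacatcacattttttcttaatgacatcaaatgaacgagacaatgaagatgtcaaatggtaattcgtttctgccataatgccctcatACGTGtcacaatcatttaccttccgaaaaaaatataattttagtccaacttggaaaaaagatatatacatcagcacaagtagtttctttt
MLS: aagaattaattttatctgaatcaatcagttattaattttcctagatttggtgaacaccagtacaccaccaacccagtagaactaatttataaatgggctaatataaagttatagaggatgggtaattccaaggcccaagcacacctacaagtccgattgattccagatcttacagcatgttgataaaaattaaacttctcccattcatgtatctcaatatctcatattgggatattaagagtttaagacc
PCK1: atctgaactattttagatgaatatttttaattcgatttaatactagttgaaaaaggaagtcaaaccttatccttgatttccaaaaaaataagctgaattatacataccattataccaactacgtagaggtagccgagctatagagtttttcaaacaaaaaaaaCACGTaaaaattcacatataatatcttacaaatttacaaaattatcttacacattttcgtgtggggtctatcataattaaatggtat
CSY3: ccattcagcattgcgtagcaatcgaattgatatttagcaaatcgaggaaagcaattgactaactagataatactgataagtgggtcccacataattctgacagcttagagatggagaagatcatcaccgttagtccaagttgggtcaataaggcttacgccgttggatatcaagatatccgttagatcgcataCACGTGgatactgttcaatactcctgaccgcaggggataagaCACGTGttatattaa

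The ICL stretch held 1 ACGTG core, whose first base lies 90 bases upstream of the start, and the PCK1 stretch held 1 on the other strand, 87 bases upstream. The CSY3 stretch held 2 G-boxes, 57 and 15 bases upstream, and since a G-box reads the same on both strands each also contains the core in both directions. The MLS stretch held neither. Of the 7 genes, 3 had the core and 1 the G-box, against 23.1% and 6.58% of 26711 promoters of the same length. CGCG, the centre of a motif that CAMTA proteins are known to bind, was in 0 of the 7 and in 10.1% of all. No other word was searched for as a CAMTA motif, so these values do not show that CAMTA sites are missing. The seed motif CATGCA was in 0 of the 7 and in 8.51% of all. These matches describe letters in a short window. They do not show that a factor binds, and a missing match says nothing of sites elsewhere. PMDH1, PMDH2 and CSY2, which like ICL and PCK1 fell in wild type, had neither motif in their windows. Their windows are not printed, although that of MLS, which holds no match either, is. Those of PMDH2 and CSY2 also overlap a neighbouring gene. The printed windows were chosen with the responses known, so they do not stand for all 7 genes.

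The libraries held 29473212 to 35450685 counts each. Counts of CAMTA6 itself were not lower in the libraries labelled camta6-5: they were 38.2 to 52.3 CPM (the counts of a gene relative to the TMM-scaled size of the library) in camta6-5 NaCl, 33.2 to 35.6 CPM in camta6-5 control, 27.7 to 33.2 CPM in NaCl-treated wild type and 14.7 to 20.0 CPM in wild-type control. Gene-level counts cannot tell a complete transcript from a truncated one, so camta6-5 is used here as the label of a library. Checked against the label, of 6 seedling markers COBL9 had 0 counts and EXPA7 had 1 over the 12 libraries, both genes of root hair growth, and of 7 endosperm markers ZOU had 0. Of the other seedling markers, RBCS1A had 251464 counts over the 12 libraries, LHCB1.3 had 2838, RHD6 had 2325 and LHCB2.1 had 21. Endosperm markers summed to 66.2 to 93.6 CPM in camta6-5 NaCl, 53.8 to 64.8 CPM in camta6-5 control, 52.1 to 70.5 CPM in NaCl-treated wild type and 48.5 to 126 CPM in wild-type control. Counts on 18S ribosomal RNA took 0.0653 to 0.573% of camta6-5 NaCl libraries, 0.108 to 1.03% of camta6-5 control libraries, 0.0211 to 0.0744% of wild-type NaCl libraries and 0.0343 to 0.508% of wild-type control libraries.

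Together the 7 genes took 1.89 ± 0.0431% of counts in camta6-5 NaCl, 1.87 ± 0.0913% in camta6-5 control, 1.43 ± 0.0242% in wild-type NaCl and 1.94 ± 0.154% in wild-type control (SD, n = 3 each). Every wild-type NaCl library lay below every other library. In bulk RNA, fewer cells of a type and less RNA per cell cannot be told apart.

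Levels of different genes were compared per length, as RPKM (CPM per kilobase of annotated exon). ICL was the highest of the 7 in every group, with 3929 ± 254 RPKM in camta6-5 NaCl, 4311 ± 456 RPKM in camta6-5 control, 2334 ± 61.8 RPKM in wild-type NaCl and 4316 ± 772 RPKM in wild-type control (SD, n = 3 each). By mean RPKM it ranked 4, 2, 3 and 2 in those groups among 18446 tested genes with an exon length. MLS came next with NaCl, at 2315 ± 139 RPKM in camta6-5 and 2143 ± 31.0 RPKM in wild type, followed by PCK1 at 1506 ± 129 and 1246 ± 47.0 RPKM. In the control groups the libraries of PCK1 and MLS overlapped, with PCK1 at 1797 ± 96.4 RPKM in camta6-5 and 1864 ± 104 RPKM in wild type and MLS at 1756 ± 61.2 and 1680.0 ± 149.5 RPKM.

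PMDH1 and CSY3 were the middle pair. PMDH1 stood above CSY3 without overlap in camta6-5 NaCl (419 ± 28.5 against 334 ± 12.5 RPKM), camta6-5 control (445 ± 19.8 against 317 ± 20.6 RPKM) and wild-type control (409 ± 31.3 against 301 ± 24.5 RPKM). In wild-type NaCl the order was turned, with PMDH1 at 277 ± 1.49 RPKM, below CSY3 at 308 ± 4.59 RPKM, again without overlap. CSY2 and PMDH2 were lowest in every group, from 20.2 ± 1.43 RPKM for CSY2 in camta6-5 control to 2.17 ± 0.797 RPKM for PMDH2 in wild-type NaCl. Their libraries overlapped in both control groups and not with NaCl. RPKM of CSY3 used the RefSeq exons, although the deposited table places the gene at chromosome 2, 17801471 to 17806049, and RefSeq starts it at 17802841. An annotated antisense RNA, AT2G09400, overlaps CSY3, and the kit does not mark strand, so reads of the pair cannot be told apart.

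**Figure D1:**
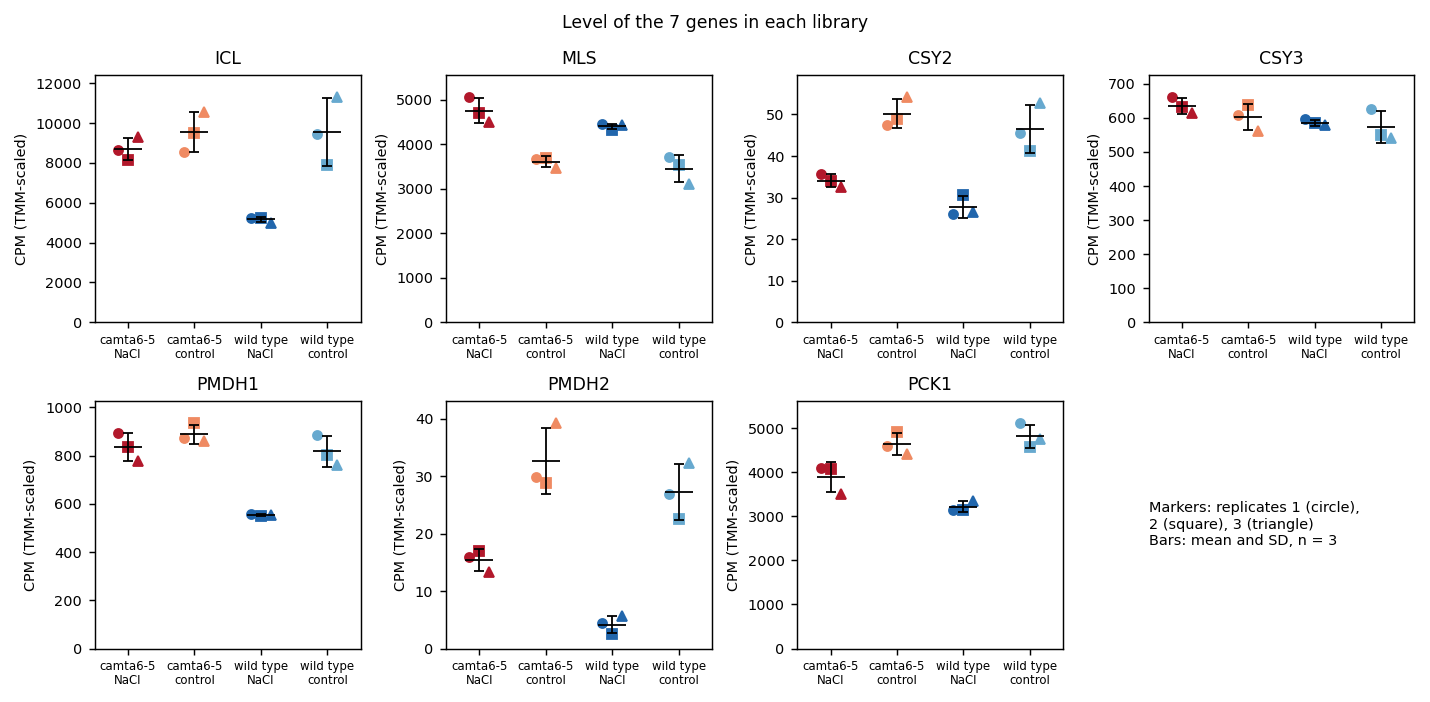
Level of each of the 7 genes in every library, as TMM-scaled CPM on axes that start at 0, with the groups from left to right camta6-5 NaCl, camta6-5 control, wild-type NaCl and wild-type control. Points are single libraries and bars are the mean and SD of 3. In the ICL panel the wild-type NaCl libraries (5008 to 5258 CPM) lie below all others (at least 7897 CPM), whereas in the MLS panel both NaCl groups lie above both control groups.

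Isocitrate lyase splits isocitrate into succinate and glyoxylate. ICL (TAIR10 chromosome 3, 7652487 to 7656011, minus strand) had 8634, 8169 and 9286 CPM in camta6-5 NaCl, against 8561, 9483 and 10576 CPM in camta6-5 control. It had 5258, 5229 and 5008 CPM in wild-type NaCl, against 9448, 7897 and 11312 CPM in wild-type control. The wild-type NaCl libraries were close to each other and below the rest, and the other groups overlapped. In camta6-5 the log2 change of ICL with NaCl was -0.13 ± 0.123 (± SE, 95% interval -0.40 to 0.13, edgeR adjusted p = 0.374), which did not pass. In wild type ICL was 1.85-fold lower with NaCl, a fall of 0.89 ± 0.124 on the log2 scale (edgeR adjusted p = 1.91e-05). The difference of the responses, camta6-5 minus wild type, was 0.75 ± 0.174 (edgeR adjusted p = 0.00326). With NaCl, ICL was 1.68-fold higher in camta6-5 than in wild type (log2 0.75 ± 0.124, edgeR adjusted p = 0.000164). Without NaCl the interval of the genotype difference was -0.27 to 0.26 on the log2 scale (edgeR adjusted p = 0.996).

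Malate synthase joins glyoxylate to acetyl-CoA and so makes malate. MLS (chromosome 5, 1032103 to 1034973, minus strand) had 5061, 4703 and 4498 CPM in camta6-5 NaCl, against 3677, 3682 and 3462 CPM in camta6-5 control. It had 4452, 4331 and 4426 CPM in wild-type NaCl, against 3704, 3539 and 3109 CPM in wild-type control. Every NaCl library was above every control library, in both genotypes. MLS rose by 0.40 ± 0.0858 on the log2 scale in camta6-5 (edgeR adjusted p = 0.00162) and by 0.35 ± 0.0857 in wild type (edgeR adjusted p = 0.00203), which is 1.32-fold higher and 1.28-fold higher. Between genotypes the MLS responses differed by 0.05 ± 0.121, with an interval of -0.21 to 0.31 (edgeR adjusted p = 0.774). With NaCl the camta6-5 libraries lay above those of wild type, by 0.11 ± 0.0856 on the log2 scale, and that difference did not pass (edgeR adjusted p = 0.275). Without NaCl the interval of the genotype difference was -0.12 to 0.25 (edgeR adjusted p = 0.824). The MLS window printed above has no ACGTG core, and neither have those of PMDH1, PMDH2 and CSY2, which fell in wild type.

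Since ICL makes the glyoxylate that MLS uses, their counts were also set against each other within each library. There were 58.6, 57.6 and 48.4 MLS counts per 100 ICL counts in camta6-5 NaCl, against 43.0, 38.8 and 32.7 in camta6-5 control. In wild-type NaCl there were 84.7, 82.8 and 88.4, against 39.2, 44.8 and 27.5 in wild-type control. The control groups overlapped, camta6-5 NaCl lay above both, and wild-type NaCl lay above all. The means were 54.9 ± 5.60 in camta6-5 NaCl, 38.2 ± 5.14 in camta6-5 control, 85.3 ± 2.83 in wild-type NaCl and 37.2 ± 8.84 in wild-type control (SD, n = 3 each). A two-sided exact permutation test gave p = 0.1 for NaCl in camta6-5, for NaCl in wild type and for genotype with NaCl, the smallest p that 3 against 3 allows, and p = 1.0 for genotype without NaCl.

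**Figure D2:**
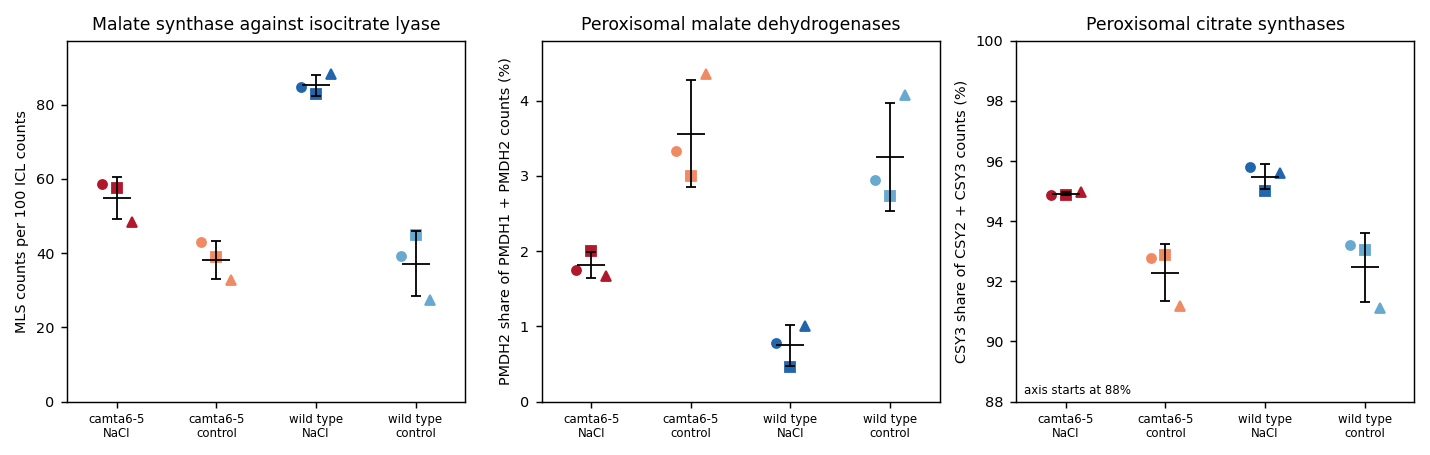
Balance within 3 pairs of genes in every library, with the groups from left to right camta6-5 NaCl, camta6-5 control, wild-type NaCl and wild-type control; points are libraries and bars the mean and SD of 3. The left panel gives MLS counts per 100 ICL counts, highest in wild-type NaCl (82.8 to 88.4), the middle panel the PMDH2 share of PMDH1 and PMDH2 counts in percent, and the right panel the CSY3 share of CSY2 and CSY3 counts in percent, on an axis that starts at 88%.

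Citrate synthases of the peroxisome join acetyl-CoA to oxaloacetate and so start the cycle. CSY2 (chromosome 3, 21724314 to 21727690, minus strand) had 35.7, 34.1 and 32.5 CPM in camta6-5 NaCl, against 47.5, 48.9 and 54.2 CPM in camta6-5 control. It had 26.0, 30.7 and 26.5 CPM in wild-type NaCl, against 45.6, 41.1 and 52.7 CPM in wild-type control. The NaCl libraries were below the control libraries in both genotypes, and with NaCl camta6-5 was above wild type, without overlap. CSY2 fell by 0.56 ± 0.0976 on the log2 scale in camta6-5 (edgeR adjusted p = 0.000367) and by 0.74 ± 0.0982 in wild type (edgeR adjusted p = 1.13e-05). The responses differed by 0.19 ± 0.138, interval -0.11 to 0.48, which did not pass (edgeR adjusted p = 0.286). With NaCl, CSY2 was 1.23-fold higher in camta6-5 than in wild type (log2 0.30 ± 0.0984, edgeR adjusted p = 0.0183). That call was lost without camta6-5 NaCl replicate 1 (edgeR adjusted p = 0.0652), without wild-type NaCl replicate 1 (adjusted p = 0.118) and without wild-type NaCl replicate 3 (adjusted p = 0.0947).

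CSY3, the more abundant of the pair, had 661, 631 and 614 CPM in camta6-5 NaCl, against 609.6, 638 and 560.4 CPM in camta6-5 control. It had 596, 584 and 579 CPM in wild-type NaCl, against 626, 550.2 and 541 CPM in wild-type control. All 12 libraries were within a narrow range, and the NaCl libraries overlapped the control libraries in both genotypes. The NaCl response was 0.08 ± 0.0786 on the log2 scale in camta6-5 (interval -0.09 to 0.25, edgeR adjusted p = 0.426) and 0.03 ± 0.0786 in wild type (interval -0.14 to 0.20, edgeR adjusted p = 0.697). For CSY3 the responses differed by 0.04 ± 0.111 (interval -0.20 to 0.28, edgeR adjusted p = 0.779). With NaCl the camta6-5 libraries lay above those of wild type, by 0.12 ± 0.0786, which did not pass (edgeR adjusted p = 0.213). Of the 4 promoters printed above, that of CSY3 holds the most matches to the core.

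CSY3 made up 94.9 ± 0.0594% of the counts of the pair in camta6-5 NaCl, 92.3 ± 0.951% in camta6-5 control, 95.5 ± 0.418% in wild-type NaCl and 92.5 ± 1.16% in wild-type control (SD, n = 3 each). In both genotypes each NaCl library had a higher share than each control library. The exact permutation test gave p = 0.1, the smallest possible, for NaCl in each genotype and for genotype with NaCl, and p = 0.6 for genotype without NaCl. The coding sequences of the pair are 84.2% identical over their alignment. Of the exonic stretches of 50 bases, 1.37% of those in CSY2 and 0% of those in CSY3 recur elsewhere in the genome, so a small part of CSY2 reads may be of uncertain origin.

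Peroxisomal malate dehydrogenases interconvert malate and oxaloacetate and take up the NADH made in beta-oxidation. PMDH1 (chromosome 2, 9689415 to 9692154, minus strand) had 893, 835 and 779 CPM in camta6-5 NaCl, against 871, 934 and 861 CPM in camta6-5 control. It had 557, 551 and 552 CPM in wild-type NaCl, against 885, 804 and 762 CPM in wild-type control. As with ICL, the wild-type NaCl libraries stood below all others. The log2 change of PMDH1 in camta6-5 was -0.09 ± 0.0796 (interval -0.26 to 0.08, edgeR adjusted p = 0.361), and in wild type it fell by 0.56 ± 0.0799, to a level 1.48-fold lower (edgeR adjusted p = 2.23e-05). Its responses differed by 0.47 ± 0.113, camta6-5 minus wild type (edgeR adjusted p = 0.00389). With NaCl, PMDH1 was 1.51-fold higher in camta6-5 than in wild type (log2 0.59 ± 0.0799, edgeR adjusted p = 3.13e-05). Without NaCl the interval of the genotype difference was -0.05 to 0.29 (edgeR adjusted p = 0.606).

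PMDH2 (chromosome 5, 2993444 to 2995675, minus strand) is the less abundant of the pair in these libraries. It had 15.9, 17.1 and 13.3 CPM in camta6-5 NaCl, against 30.0, 28.8 and 39.2 CPM in camta6-5 control. It had 4.39, 2.56 and 5.60 CPM in wild-type NaCl, against 26.9, 22.6 and 32.3 CPM in wild-type control. The wild-type NaCl values rest on 158, 85 and 197 counts. The control groups were highest and overlapped, camta6-5 NaCl was lower, and wild-type NaCl was lowest, without overlap. PMDH2 fell by 1.08 ± 0.205 on the log2 scale in camta6-5, to a level 2.12-fold lower (edgeR adjusted p = 0.000661). In wild type it fell by 2.70 ± 0.227, to a level 6.49-fold lower (edgeR adjusted p = 1.57e-07). Its responses differed by 1.62 ± 0.303 (interval 0.96 to 2.27, edgeR adjusted p = 0.000829). With NaCl, PMDH2 was 3.68-fold higher in camta6-5 than in wild type (log2 1.88 ± 0.228, edgeR adjusted p = 1.36e-05), and without NaCl the interval was -0.17 to 0.69 (edgeR adjusted p = 0.665).

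PMDH2 supplied 1.81 ± 0.172% of the counts of the pair in camta6-5 NaCl, 3.56 ± 0.713% in camta6-5 control, 0.750 ± 0.273% in wild-type NaCl and 3.25 ± 0.718% in wild-type control (SD, n = 3 each). The share was lower in every NaCl library than in every control library of its genotype, and higher in every camta6-5 NaCl library than in every wild-type NaCl library. The exact permutation test gave p = 0.1, the smallest possible, for these comparisons, and p = 0.5 for genotype without NaCl. The coding sequences of the pair are 75.8% identical over their alignment, and 0% of the exonic stretches of 50 bases in either gene recur elsewhere.

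Phosphoenolpyruvate carboxykinase catalyses the step that commits organic acids to sugar. PCK1 (chromosome 4, 17802694 to 17806539, minus strand) had 4102, 4063 and 3508 CPM in camta6-5 NaCl, against 4589.8, 4914 and 4424 CPM in camta6-5 control. It had 3149.7, 3146 and 3358 CPM in wild-type NaCl, against 5109, 4584 and 4751 CPM in wild-type control. NaCl libraries were below control libraries in both genotypes, and with NaCl camta6-5 was above wild type, without overlap. In camta6-5 PCK1 fell by 0.25 ± 0.0879 on the log2 scale, to a level 1.19-fold lower (edgeR adjusted p = 0.0251), a call lost without camta6-5 NaCl replicate 3 (adjusted p = 0.114) or camta6-5 control replicate 2 (adjusted p = 0.0516). In wild type it fell by 0.58 ± 0.0881, to a level 1.50-fold lower (edgeR adjusted p = 4.10e-05).

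With NaCl, PCK1 was 1.21-fold higher in camta6-5 than in wild type (log2 0.27 ± 0.0879, edgeR adjusted p = 0.0153). This call was lost without replicate 1 or 2 of camta6-5 NaCl (edgeR adjusted p = 0.0663 and 0.0553) and without replicate 1 or 2 of wild-type NaCl (adjusted p = 0.0825 and 0.0865). For PCK1 the difference of the responses was 0.33 ± 0.124 (edgeR adjusted p = 0.0443). It kept its call only without camta6-5 NaCl replicate 3 or without camta6-5 control replicate 2, and was lost without any of the other 10 libraries, with an edgeR adjusted p of up to 0.147. Without NaCl the interval of the genotype difference of PCK1 was -0.24 to 0.14 (edgeR adjusted p = 0.868). Of exonic stretches of 50 bases in PCK1, 1.18% recur elsewhere in the genome.

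**Figure D3:**
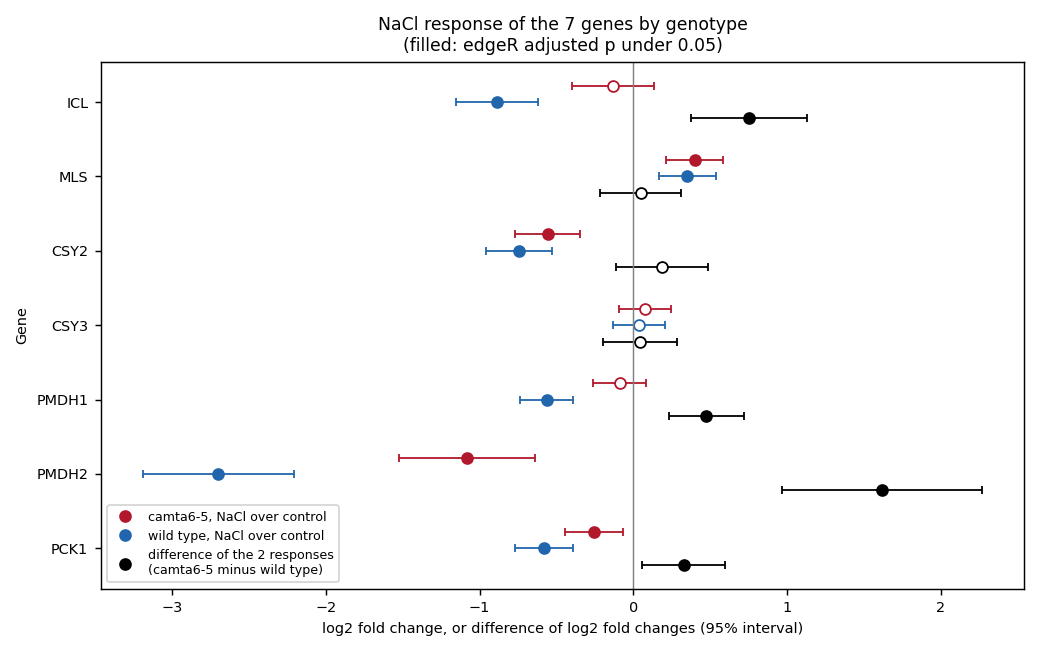
NaCl response of each gene in camta6-5 and in wild type, as log2 fold change of NaCl over control, and the difference of the responses (camta6-5 minus wild type), with 95% intervals; filled points have an edgeR adjusted p under 0.05. The difference is filled for ICL (0.75), PMDH1 (0.47), PMDH2 (1.62) and PCK1 (0.33), and open for MLS, CSY2 and CSY3.

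Seen by comparison, NaCl in camta6-5 raised 1 of the 7 genes (MLS) and lowered 3 (CSY2, PMDH2, PCK1), where 28.2% of all tested genes were higher and 27.5% lower. In wild type, NaCl raised 1 (MLS) and lowered 5 (ICL, CSY2, PMDH1, PMDH2, PCK1), where 37.9% of all tested genes were higher and 39.6% lower. The median log2 change of the 7 was -0.13 in camta6-5 and -0.58 in wild type, against medians over all tested genes of 0.01 and -0.01. The counts were all read at an edgeR adjusted p under 0.05 over all tested genes. In either direction 4 of the 7 were called in camta6-5 and 6 of the 7 in wild type, against 55.6% and 77.5% of all tested genes, which is near the background.

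Between genotypes with NaCl, 5 of the 7 genes were higher in camta6-5 than in wild type (ICL, CSY2, PMDH1, PMDH2, PCK1) and 0 were lower, where 33.8% of all tested genes were higher and 28.5% lower. The median was 0.30, against 0.05 over all tested genes. The count was 3 without camta6-5 NaCl replicate 1 and 3 without wild-type NaCl replicate 1. Without NaCl, edgeR called 0 of the 7 genes higher or lower, where 0.0864% of all tested genes were higher, 0.13% lower and 0.216% either. At an unadjusted p under 0.05 it also called 0 of the 7, where 6.02% of all tested genes were higher and 4.99% lower, and DESeq2 and limma voom called 0 at their adjusted p. The difference of the NaCl responses was called for 4 of the 7, all more positive in camta6-5 (ICL, PMDH1, PMDH2, PCK1), where 27.1% of all tested genes were more positive and 21.0% more negative. Its median was 0.33, against 0.05 over all tested genes. In either direction 62.3% of all tested genes were called between genotypes with NaCl and 48.1% for the difference of the responses, so the counts among the 7 are near the background in both. These comparisons share libraries and are not independent of each other.

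The 5 libraries richest in 18S ribosomal RNA were camta6-5 NaCl replicates 1 and 2, camta6-5 control replicates 1 and 3, and wild-type control replicate 1. Leaving them out kept 1 library in each camta6-5 group, which is then assumed to vary like the other groups. ICL then had a difference of the responses of 0.83 (edgeR adjusted p = 0.0467) and PMDH2 one of 1.56 (edgeR adjusted p = 0.0441). It was 0.21 for PMDH1 (edgeR adjusted p = 0.322) and 0.016 for PCK1 (edgeR adjusted p = 0.948), and neither passed. With NaCl, ICL, PMDH1 and PMDH2 were higher in camta6-5 than in wild type, by 0.81, 0.45 and 1.62 on the log2 scale (edgeR adjusted p = 0.00573, 0.00612 and 0.00489), while CSY2 and PCK1 did not pass (edgeR adjusted p = 0.385 and 0.535). In wild type all 6 calls of the NaCl response were made again, and in camta6-5 the only call was the fall of PCK1.

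**Figure D4:**
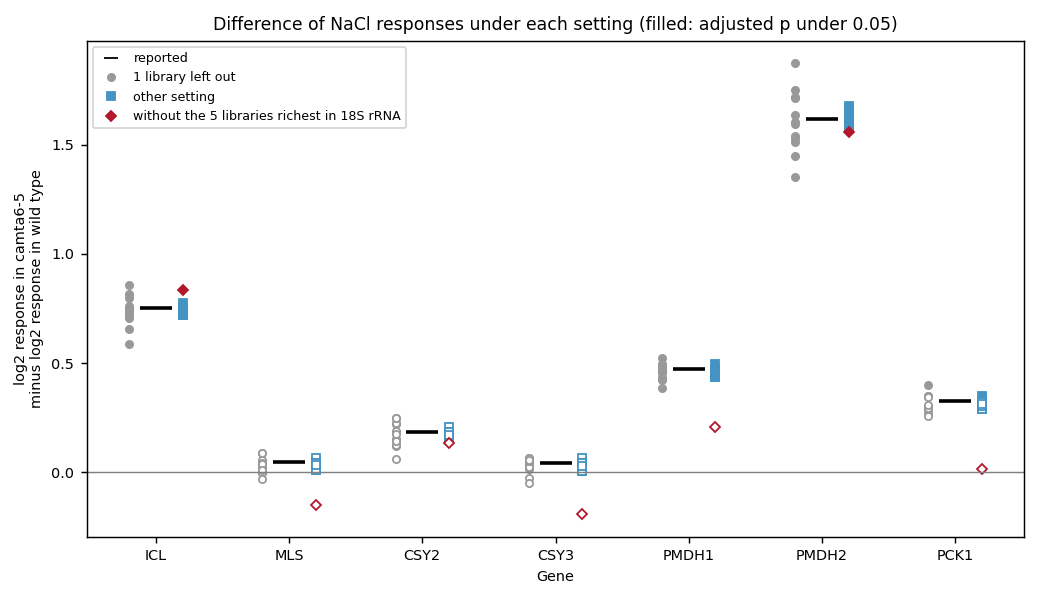
Difference of the NaCl responses (log2, camta6-5 minus wild type) of each gene as reported and under every alternative setting; grey points leave out 1 library, blue squares are other settings, red diamonds leave out the 5 libraries richest in 18S ribosomal RNA, and filled symbols have an adjusted p under 0.05. ICL stays between 0.59 and 0.86 and PMDH2 between 1.35 and 1.87, whereas PCK1 ranges from 0.016 to 0.40 and is open under most settings.

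The 6 seedling markers summed to 551 to 669 CPM in camta6-5 NaCl, 816 to 944 CPM in camta6-5 control, 274 to 365 CPM in NaCl-treated wild type and 724 to 944 CPM in wild-type control. Most of that sum was RBCS1A, of the small subunit of Rubisco, with 583 ± 63.2 CPM in camta6-5 NaCl, 873 ± 64.4 CPM in camta6-5 control, 308 ± 44.8 CPM in NaCl-treated wild type and 808 ± 111 CPM in wild-type control (SD, n = 3 each). Of the 3 seedling markers tested, 2 fell in camta6-5 and 3 in wild type with NaCl, and 2 had a more positive response in camta6-5. Of all tested genes 27.5% fell in camta6-5, 39.6% fell in wild type and 27.1% had a more positive response. RHD6 was not called in camta6-5 (log2 0.10 ± 0.131, edgeR adjusted p = 0.544), and the difference of the LHCB1.3 responses did not pass (edgeR adjusted p = 0.260). Of the 5 endosperm markers tested, 2 rose and 1 fell in camta6-5, 1 rose and 1 fell in wild type, and the response was more positive in camta6-5 for 1 and more negative for 2. Of all tested genes 28.2% rose in camta6-5, 37.9% rose in wild type and 21.0% had a more negative response. In either direction 55.6% of all tested genes were called in camta6-5, 77.5% in wild type and 48.1% for the difference of the responses. The part of these tissues in the results was not tested.

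Related enzymes, most of them outside the peroxisome, are encoded by 17 listed genes, of which 12 were tested. Cytosolic PCK2, a relative of PCK1, had 0 counts in all 12 libraries, which allows up to 0.0295 to 0.0312 CPM over a group (3 counts over the group, counting error only). Over the 12 libraries CSY1, of a further peroxisomal citrate synthase, had 3 counts, mitochondrial CSY5 had 4, cytosolic FUM2 (fumarase) had 2 and cMDH3 (malate dehydrogenase) had 15. With NaCl, 4 of the 12 rose and 4 fell in camta6-5, beside 28.2% and 27.5% over all tested genes. In wild type 4 rose and 7 fell, beside 37.9% and 39.6% over all tested genes. The response was more positive in camta6-5 for 7 and more negative for 3, against 27.1% and 21.0% of all tested genes. Between genotypes with NaCl 8 were higher in camta6-5 and 3 lower (33.8% and 28.5% of all tested genes), and without NaCl 0 were called.

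The mitochondrial malate dehydrogenase gene mMDH2 had 53.5 ± 2.13 CPM in camta6-5 NaCl, 51.6 ± 4.86 CPM in camta6-5 control, 24.7 ± 0.716 CPM in NaCl-treated wild type and 43.7 ± 4.95 CPM in wild-type control (SD, n = 3 each). The wild-type NaCl libraries had the lowest mean. Its response on the log2 scale was 0.05 ± 0.0891 in camta6-5 (edgeR adjusted p = 0.636), against a fall of 0.82 ± 0.0910 in wild type (edgeR adjusted p = 2.08e-06), a difference of 0.88 ± 0.127 (edgeR adjusted p = 0.000141). For mMDH1 that difference was 0.58 ± 0.136 (edgeR adjusted p = 0.00363), and both falls passed (edgeR adjusted p = 0.00253 in camta6-5 and 6.23e-07 in wild type). FUM1, the mitochondrial fumarase gene, fell by 0.92 ± 0.0957 in camta6-5 and by 1.38 ± 0.0967 in wild type (edgeR adjusted p of the falls 6.35e-06 and 2.83e-08). While mMDH2, mMDH1 and FUM1 fell in wild type, 4 of the 12 tested genes of this list rose there, beside 37.9% of all tested genes. For 3 of the 12 the response was more negative in camta6-5, beside 21.0% of all tested genes.

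Downstream of PCK1, 28 genes of sugar synthesis were listed and 26 tested. With NaCl, 8 rose and 9 fell in camta6-5, 12 rose and 9 fell in wild type, and the response was more positive in camta6-5 for 7 and more negative for 7. Over all tested genes the share that rose was 28.2% in camta6-5 and 37.9% in wild type, the share that fell was 27.5% and 39.6%, and 27.1% had a more positive and 21.0% a more negative response. GAPC1, a cytosolic glyceraldehyde-3-phosphate dehydrogenase gene, had 591 ± 43.3 CPM in camta6-5 NaCl, 747 ± 90.9 CPM in camta6-5 control, 1181 ± 104 CPM in NaCl-treated wild type and 718 ± 43.3 CPM in wild-type control (SD, n = 3 each). It fell by 0.34 ± 0.102 on the log2 scale in camta6-5 (edgeR adjusted p = 0.0122) and rose by 0.72 ± 0.102 in wild type (edgeR adjusted p = 2.23e-05), a difference of -1.06 ± 0.144 (edgeR adjusted p = 8.97e-05). SPS3F, a sucrose-phosphate synthase gene, rose by 0.96 ± 0.135 in camta6-5 and by 2.12 ± 0.138 in wild type (difference -1.16 ± 0.190, edgeR adjusted p = 0.000337). PFPalpha1, of the pyrophosphate-dependent phosphofructokinase, fell by 0.48 ± 0.0769 in camta6-5 and by 1.13 ± 0.0781 in wild type (difference 0.65 ± 0.109, edgeR adjusted p = 0.000400).

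Upstream of the cycle, all 14 listed genes of oil breakdown and beta-oxidation were tested. With NaCl, 3 rose and 4 fell in camta6-5, 7 rose and 4 fell in wild type, and the response was more positive in camta6-5 for 4 and more negative for 4. Of all tested genes 28.2% rose and 27.5% fell in camta6-5, and 37.9% rose and 39.6% fell in wild type. Their response was more positive in camta6-5 for 27.1% and more negative for 21.0%. Of all tested genes 55.6% were called in either direction in camta6-5, 77.5% in wild type and 48.1% for the difference of the responses. ACX4, of the acyl-CoA oxidase that acts on short chains, had 234 ± 7.44 CPM in camta6-5 NaCl, 334 ± 17.7 CPM in camta6-5 control, 139 ± 5.50 CPM in NaCl-treated wild type and 303 ± 22.7 CPM in wild-type control (SD, n = 3 each). It fell by 0.51 ± 0.0727 on the log2 scale in camta6-5 and by 1.12 ± 0.0736 in wild type, a difference of 0.61 ± 0.103 (edgeR adjusted p = 0.000403). The lipase gene SDP1, whose product starts oil breakdown, had a response of 0.06 ± 0.0766 in camta6-5 (edgeR adjusted p = 0.562) and rose by 0.65 ± 0.0767 in wild type (edgeR adjusted p = 3.77e-06), a difference of -0.60 ± 0.108 (edgeR adjusted p = 0.000665). ACN1, of a peroxisomal acetate-activating enzyme that feeds the cycle, rose by 1.37 ± 0.149 in camta6-5 and by 1.41 ± 0.150 in wild type, and the difference of -0.04 ± 0.210 did not pass (edgeR adjusted p = 0.898).

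The medians of these lists can be set beside those of the 7 genes. The difference of the responses had a median of 0.33 in the 7 genes, 0.33 in the organic acid list, -0.13 in the sugar synthesis list and 0.11 in the list of oil breakdown, against 0.05 over all tested genes. In wild type with NaCl the medians were -0.58 in the 7 genes, -0.42 in the organic acid list, 0.13 in the sugar synthesis list and 0.06 in the list of oil breakdown.

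The tested genes whose pattern over the 12 libraries was most like that of ICL were found from log2 CPM centred on each gene's mean. By root mean square difference they were RGP2 (AT5G15650, 0.0625), CP5 (AT1G64720, 0.0924) and AT1G29790 (0.0934). RGP2 had 112 ± 7.30 CPM in camta6-5 NaCl, 125 ± 19.1 CPM in camta6-5 control, 68.8 ± 4.68 CPM in NaCl-treated wild type and 122 ± 16.8 CPM in wild-type control (SD, n = 3 each). Among the other 6 genes described here, PMDH1 ranked 803 in likeness to ICL, CSY2 846, PCK1 1647, CSY3 5648, MLS 9071 and PMDH2 15240. The measure also counts the size of a change, so the rank does not follow direction alone. With NaCl in wild type PMDH2 fell as ICL did, but by more, whereas MLS rose. For PCK1 the nearest were AT5G17620 (0.0542), PTAC17 (AT1G80480, 0.0561) and IPT9 (AT5G20040, 0.0582).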

How the data were processed

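The authors deposited 1 table of raw counts, whole numbers of reads per gene that were not normalized. Per the submitters' processing notes, the tools were HTSeq 0.6.1, TopHat2 2.1.0, Bowtie2 2.2.6, DESeq2 1.10.0 and cutadapt 1.9, with TAIR10; settings, such as the treatment of reads on overlapping genes, are not given in the sources used here. Per the labels' protocols, the libraries were made with TruSeq v2, which does not mark strand.

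The function filterByExpr of edgeR 4.0.16 (R 4.3.3) selected the genes tested (minimum count 10, minimum total 15). Libraries were scaled by TMM, and all 12 libraries entered a quasi-likelihood fit of the 4 group means (8 residual degrees of freedom). Each of 5 comparisons was tested two-sided, with Benjamini-Hochberg adjustment over all 18515 genes and a threshold of 0.05. SE is the absolute log2 fold change divided by the square root of F. The fit was tested on simulated data. Alternatives used limma 3.58.1 voom, DESeq2 1.42.0, other scalings, filters and sample sets. RPKM used RefSeq exon lengths. Of the table's genes, 32835 were found in that annotation.

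The 7 genes and the lists were chosen with earlier results of these data known. Named genes were all 7, up to 4 of each list with the smallest adjusted p of a comparison, and the 3 nearest patterns to ICL and to PCK1; 1 gene that this rule takes is not reported here. Replicates of a group differed by more than sampling noise (chi-square per degree of freedom 10.1 to 53.4). Deviations of same-numbered libraries correlated at 0.179 to 0.270 between camta6-5 control and wild-type control, so by the rule of 0.1 for every pair the numbers pair those groups, from the data and not from the labels. They did not pair the other groups (-0.218 to 0.221). The reported fit and the permutation tests treated all libraries as unpaired, those of the control groups included, and only the alternative with a replicate block used the numbers.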

Additional observations from a re-analysis of the deposited data

Results flagged for a closer look

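The NaCl response differed between genotypes for 4 of the 7 genes, by edgeR's test of the difference itself (camta6-5 minus wild type). The difference was 0.75 on the log2 scale for ICL, 0.47 for PMDH1, 1.62 for PMDH2 and 0.33 for PCK1. Of all tested genes 27.1% were called in this direction. The values for ICL, PMDH1 and PMDH2 passed with every library left out in turn, and the value for PCK1 passed in 2 of 12 such fits. Without the 5 libraries richest in 18S ribosomal RNA, PMDH1 and PCK1 did not pass. No other of the 7 genes was flagged, and groups of 3 libraries are too small for a test of outlying samples.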

How the results depend on the processing

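The 6 calls among the 7 genes for NaCl in wild type were made under each of the 10 other settings and with each library left out (6 to 6). Leaving out 1 library gave 3 to 4 calls for NaCl in camta6-5, 3 to 5 for genotype with NaCl, 0 to 0 without NaCl and 3 to 4 for the difference of the responses. Without the 5 libraries richest in 18S ribosomal RNA these counts were 1, 3, 0 and 2. Fewer samples were fitted there and the estimates also moved, for the difference of the responses to 0.016 against 0.33 for PCK1 and to 0.21 against 0.47 for PMDH1, and the cause was not tested. Then, of all tested genes 5254 were called for NaCl in camta6-5 and 4577 for the difference of the responses. For genotype without NaCl, edgeR called 40 genes in all, 75 with no filter, 157 by DESeq2, 11 with only the groups compared, 4 without the 18S-rich libraries, and 24 to 47 with 1 library left out (24 when replicate 1 of camta6-5 control was dropped, 25 when replicate 1 of wild-type control was). The fit without scaling called 14 genes higher and 33 lower for this comparison, against 16 and 24 in the reported fit.

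The difference of the PCK1 responses lost its call with RLE size factors (adjusted p = 0.0728), no filter (0.0986), a stricter filter (0.0536), the replicate block (0.0583) and without ribosomal and organelle genes (0.0540), where it stayed at 0.29 to 0.32. With the replicate block, the value for ICL without NaCl was 0.0046 on the log2 scale; 43 genes were then called without NaCl, and no other call among the 7 changed. The fall of PCK1 in camta6-5 was lost with only the groups compared (adjusted p = 0.103). The cause of these losses was not tested.

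Signs turned only in values that had not passed. Without NaCl, ICL was 0.0082 by voom and -0.14 to 0.13 with 1 library left out, and MLS was -0.010 to 0.11. The difference of the responses was -0.032 to 0.090 for MLS and -0.051 to 0.067 for CSY3 with 1 library left out. Without the 18S-rich libraries, the difference was -0.15 for MLS and -0.19 for CSY3, CSY3 with NaCl in camta6-5 was -0.059, MLS between genotypes with NaCl -0.010 and PCK1 without NaCl 0.067. Between genotypes without NaCl, leaving out 1 library moved the difference of the PMDH2 share from -0.0894 to 0.721 percentage points and that of the CSY3 share from -0.850 to 0.366. In all, 420 of the values under other settings and 554 with 1 library left out were rated unchanged. For a test of 1 gene this meant the same direction and the same outcome, passed or not. For a count of calls it meant a similar size, and for a share of a pair only the same direction.

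At these depths counting error is small for all 7 genes except PMDH2 in wild-type NaCl, and the spread of 3 libraries limits the tests.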

Other observations

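Leaf peroxisomes run photorespiration in place of the glyoxylate cycle, and all 6 listed genes of that pathway were tested. With NaCl, 4 rose and 1 fell in camta6-5, and 3 rose and 2 fell in wild type, where 28.2% and 27.5% of all tested genes rose and fell in camta6-5 and 37.9% and 39.6% in wild type. The hydroxypyruvate reductase gene HPR1 had 30.3 ± 2.57 CPM in camta6-5 NaCl, 16.2 ± 1.03 CPM in camta6-5 control, 13.1 ± 1.74 CPM in NaCl-treated wild type and 14.8 ± 1.12 CPM in wild-type control (SD, n = 3 each). It rose by 0.90 ± 0.104 on the log2 scale in camta6-5 (edgeR adjusted p = 1.50e-05), its change in wild type was -0.17 ± 0.107 (edgeR adjusted p = 0.152), and the difference of the responses was 1.07 ± 0.149 (edgeR adjusted p = 0.000104). AGT1, of the peroxisomal serine-glyoxylate aminotransferase, rose by 1.77 ± 0.166 in camta6-5 and by 2.30 ± 0.166 in wild type, and the difference of -0.52 ± 0.231 did not pass (edgeR adjusted p = 0.0783). Of the 6, the response was more positive in camta6-5 for 2 and more negative for 1, where 27.1% and 21.0% of all tested genes were.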
